A study of Mus musculus with 8 samples.

Results

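The genes described here are 40 genes known to be induced by interferons, followed across 4 sorted populations of mouse thymocytes. They were taken as a named list, and each was read from the array probe whose RefSeq accession maps to its symbol, using the brightest probe where a gene had more than 1. Of the 40, 39 had such a probe. Mx1, which encodes a GTPase that blocks viral nucleocapsids, had none and has no value here. All 39 were well above background on all 8 arrays, so no member entered or left the test through a filter on dim probes. They are 39 of the 13498 genes tested.

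Expression was measured with 1-colour arrays in CD4 single-positive (CD4SP) thymocytes lysed straight after preparation, with 2 biological replicates of each population. WT Tconv were wild-type conventional CD4 T cells, sorted as CD25-low. WT Treg, the wild-type regulatory population, were sorted as Foxp3+. Nr4a-TKO preTreg were regulatory T cell precursors whose genotype is labelled Nr4a-TKO, Nr4a being a family of nuclear orphan receptors, and were sorted as CD25-high, GITR-high and Nr4a3-high. Foxp3-KO preTreg were precursors of the genotype labelled Foxp3-KO, sorted as CD25-high and positive for a Foxp3 reporter. The labels give no strain, age, sex, promoter of a Cre or number of animals per sample. There was no wild-type precursor group, so each contrast of a precursor with a wild-type population mixes genotype with gate. The p-values measure the spread between these samples only, and with 2 arrays a group their number limits the precision.

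Type I interferons bind the receptor formed by Ifnar1 and Ifnar2, and the kinases Jak1 and Tyk2 then activate ISGF3, a complex that holds Stat2 and Irf9 and binds the interferon-stimulated response element (ISRE) in the promoters of target genes. Type II interferon acts through Ifngr1 and Ifngr2 and, further down, the GAS element. Medullary thymic cells make type I interferon without infection, and single-positive thymocytes are known to raise interferon-stimulated genes as they mature.

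Promoter sequences are shown to make the shared element visible in genes that moved in different directions. RefSeq promoter windows (GRCm38.p6, 250 bases before to 50 bases after the annotated start) were matched for 31 of the 39 genes. Rtp4, Usp18, Zbp1, Parp9, Dhx58, Iigp1, Oas2 and Parp14 were not matched. The core searched was GAAA, any 2 bases and GAAA again, on either strand, and capitals mark every base of a core. Where capitals read TTTC, the core lies on the strand opposite to the gene. Each stretch is written 5′ to 3′ on the strand of the gene.
Isg15, chr4:156200855-156200916, minus strand: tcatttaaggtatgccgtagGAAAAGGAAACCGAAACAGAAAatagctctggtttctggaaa
Ifit1, chr19:34640765-34640833, plus strand: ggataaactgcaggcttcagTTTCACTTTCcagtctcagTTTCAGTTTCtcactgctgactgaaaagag
Ifit3, chr19:34583353-34583436, plus strand: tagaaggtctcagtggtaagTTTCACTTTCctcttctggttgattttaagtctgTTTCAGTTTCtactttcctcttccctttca
Oas3, chr5:120777705-120777754, minus strand: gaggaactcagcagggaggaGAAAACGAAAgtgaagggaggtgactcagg
Oas1a, chr5:120907526-120907565, minus strand: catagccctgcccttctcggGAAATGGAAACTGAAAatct
Gbp3, chr3:142559979-142560034, plus strand: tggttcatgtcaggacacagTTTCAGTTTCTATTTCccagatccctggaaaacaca
Igtp, chr11:58199502-58199551, plus strand: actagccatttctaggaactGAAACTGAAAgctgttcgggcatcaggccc

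The ISRE core was found in 16 of the 31 genes (51.6%), against 3.99% of all 27025 genes with promoters of the same length. Isg15 held 3 overlapping cores, and Ifit1 and Ifit3 held 2 each, all on the opposite strand. In 13 genes a core lay before the annotated start. The cores of Ifih1, Eif2ak2 and Trim21 lay after it. The GAS letters TTCNNNGAA, which read the same on both strands, were found in 7 of the 31 genes (22.6%), against 9.55% of all genes with promoters. Stretches ending before the start are printed for Ifit1 and Ifit3, which were lowest in Nr4a-TKO, for Oas1a and Gbp3, which were highest there, and for Oas3, which was highest in WT Tconv. A match is a description of letters and not a measured site, and no match says only that these letters are not in this window.

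**Figure D1:**
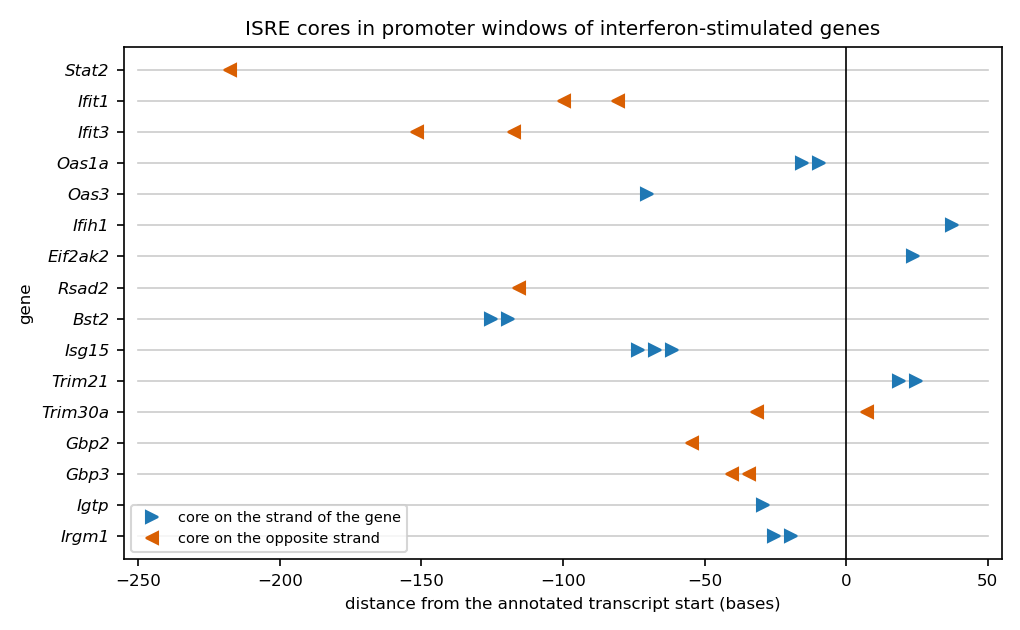
Positions of the ISRE core in the 16 genes that hold one, as distance in bases from the annotated transcript start (vertical line), with right-pointing triangles for a core on the strand of the gene and left-pointing triangles for the opposite strand. Most cores lie before the start, and those of Ifih1, Eif2ak2 and Trim21 and 1 of the 2 of Trim30a lie after it.

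On each array 48.6% to 53.0% of spots were well above background, and replicates correlated over tested genes at 0.976 (Foxp3-KO, the least alike pair) to 0.997 (WT Tconv). WT Tconv and Nr4a-TKO lay in row 1 of the 1 slide, and WT Treg and Foxp3-KO in row 2. Only Nr4a-TKO against WT Tconv and Foxp3-KO against WT Treg therefore lie within a row, and in the other comparisons row and group cannot be told apart. Foxp3 was lower in Foxp3-KO than in WT Treg by 3.02 ± 0.23 on the log2 scale (adjusted p = 0.00703) and still 5.44 ± 0.23 above WT Tconv. Nr4a-TKO minus WT Treg was 0.38 ± 0.19 for Nr4a1 and -0.62 ± 0.46 for Nr4a3, neither called, and Nr4a2 was higher in Nr4a-TKO (2.08 ± 0.20). No source used here says which parts of these genes were deleted, so the probes check no genotype, and Nr4a-TKO and Foxp3-KO below mean the arrays so labelled.

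Levels are log2 signals relative to the array's 75th percentile, so 0 is that percentile and 1 unit is a 2-fold step. Differences are log2 values ± the standard error of limma, from 1 fit over the 8 arrays, and a gene is called where the Benjamini-Hochberg adjusted p over all tested genes was under 0.05. Between Nr4a-TKO and Foxp3-KO, 19 of the 39 interferon-stimulated genes were called lower in Nr4a-TKO and 4 higher, where 15.6% of all tested genes were called lower, 17.8% higher and 33.4% in either direction. Xaf1 counts among the 19 by the brighter of its probes. Fitted on only these 2 groups, 3 members were lower and 0 higher, against 372 and 515 of the 13498 genes tested. Between Nr4a-TKO and WT Treg, 16 were lower in Nr4a-TKO and 5 higher (16.4% and 18.5% of all genes, 35% in all). Between Nr4a-TKO and WT Tconv, 17 were lower and 6 higher (27.6% and 21.1% of all genes, 48.7% in all). Xaf1 is also among the 16 and the 17 by its brighter probe. Its dimmer probe was called higher in Nr4a-TKO than in WT Tconv (3.77 ± 0.49). These 3 comparisons share the Nr4a-TKO arrays. The median difference of the members was -0.44, -0.31 and -0.22 in that order, against 0.01, -0.01 and -0.11 over all genes. The omissions of an array given next also lowered the number called over all genes. Without Nr4a-TKO replicate 1 the members called came to 14, 12 and 11, and without either WT Tconv array 10 were called between Nr4a-TKO and WT Tconv. Without WT Tconv replicate 1, 13 were called between Nr4a-TKO and WT Treg, and without WT Treg replicate 1 or 2, 12 and 10.

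In Foxp3-KO against WT Tconv, 13 members were called higher and 1 lower (10.3% and 14.8% of all genes, 25.1% in all), with a median difference of 0.22 against -0.11 over all genes. Leaving out either WT Tconv array lost all of these calls, while the median stayed above 0 (0.13 to 0.33 over the 8 omissions). The 4 groups share 1 estimate of spread, so each array bears on every comparison, and WT Tconv was the pair most alike. Why leaving out a WT Tconv array lost these calls was not tested. Both WT Tconv omissions also lowered the number called over all genes in every comparison. Leaving out either Nr4a-TKO array left 9 calls and leaving out either WT Treg array left 8. Between WT Treg and WT Tconv, 7 members were higher in WT Treg and 5 lower (13.8% and 20.9% of all genes, 34.7% in all), a mixed result with a median of 0.13 against -0.08. Without WT Tconv replicate 1 or 2, 2 and 3 of these 12 calls were made, and without WT Treg replicate 1 or 2, 5 and 6. Between Foxp3-KO and WT Treg, 2 members were called higher and 0 lower (3.33% and 3.12% of all genes, 6.45% in all), and the median was 0.15 against -0.01. Without either WT Tconv array 0 were called there, without either WT Treg array 1, and without Foxp3-KO replicate 1, 5.

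Scaling bears on the signs of the smaller differences. With each array scaled to its median instead of its 75th percentile, the median over all genes in WT Treg against WT Tconv moved from -0.08 to -0.23 and that of the members from 0.13 to -0.02, so the members stayed 0.21 above all genes. The members called higher and lower there became 2 and 6, and with quantile normalization 11 and 3. In Foxp3-KO against WT Tconv they became 7 and 2 with median scaling, with a median of 0.07 against -0.25 over all genes. Of all calls, 25.8% and 22.5% were then in the higher direction in these comparisons, against 39.8% and 41.0% before. In Nr4a-TKO against WT Treg and against Foxp3-KO the share was 67.1% and 66.7%, against 53.0% and 53.2%. The members' medians stayed below 0 there (-0.22 and -0.35).

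**Figure D2:**
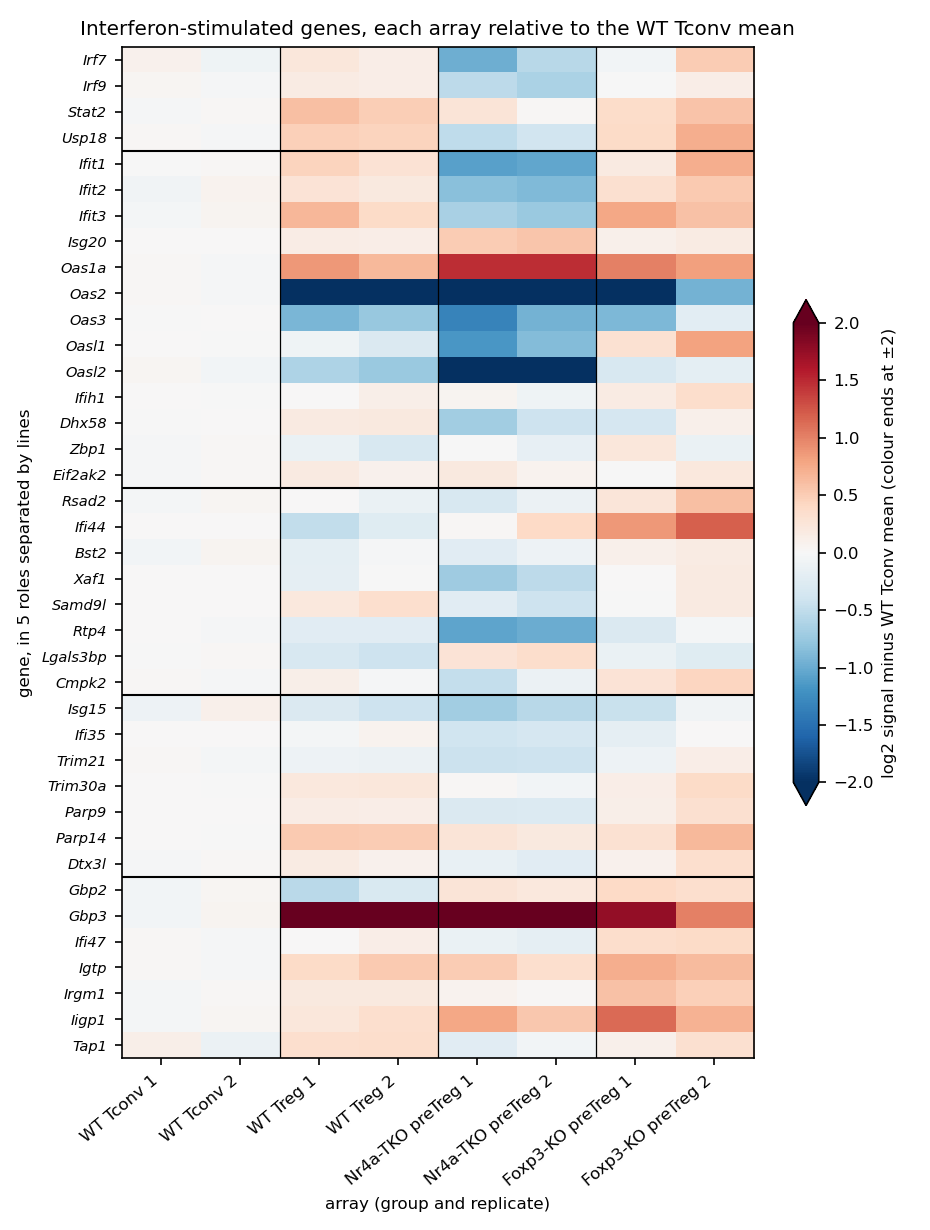
Each of the 39 interferon-stimulated genes (rows, in 5 roles separated by lines) on each of the 8 arrays (columns), as log2 signal minus the mean of the WT Tconv arrays, with colours ending at ±2. The Nr4a-TKO columns are blue for Irf7, Irf9, Usp18, the Ifit genes, Oasl1, Oasl2 and Rtp4, and red for Oas1a and Gbp3.

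Among the transcription and feedback genes, Irf7, Irf9 and Usp18 were lower in Nr4a-TKO than in each other population. Irf9 is the DNA-binding subunit of ISGF3, and Irf7 is the factor that amplifies type I interferon transcription. Irf9 was at 5.02 and 4.95 in WT Tconv, 5.15 and 5.12 in WT Treg, 4.45 and 4.35 in Nr4a-TKO and 4.97 and 5.11 in Foxp3-KO. Both Nr4a-TKO arrays lay below the other 6, WT Tconv and Foxp3-KO overlapped, and WT Treg was highest by a small margin. The Irf9 difference was -0.58 from WT Tconv, -0.74 from WT Treg and -0.64 from Foxp3-KO (each ± 0.08, adjusted p = 0.00388, 0.00293 and 0.00512 in limma), and no omission of 1 array lost these calls. Irf7 read 2.09 and 1.93 in WT Tconv, 2.23 and 2.14 in WT Treg, 1.03 and 1.45 in Nr4a-TKO, and 1.95 and 2.51 in Foxp3-KO. Nr4a-TKO was again apart, by -0.77, -0.95 and -0.99 (± 0.22) from WT Tconv, WT Treg and Foxp3-KO. All 3 Irf7 calls were lost without either WT Tconv array or Nr4a-TKO replicate 1, with an adjusted p of up to 0.154.

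Usp18 removes ISG15 from proteins and blocks signalling at Ifnar2, so it is both a target and a brake of the pathway. Its level was 3.10 and 3.06 in WT Tconv, 3.55 and 3.53 in WT Treg, 2.57 and 2.70 in Nr4a-TKO, and 3.46 and 3.80 in Foxp3-KO. The order was Nr4a-TKO, then WT Tconv, then WT Treg and Foxp3-KO together, and WT Treg and Foxp3-KO overlapped. Usp18 fell by 0.91 ± 0.13 in Nr4a-TKO from WT Treg (adjusted p = 0.00562) and by 0.99 ± 0.13 from Foxp3-KO (adjusted p = 0.00501), and both calls held with any 1 array left out. Its smaller calls against WT Tconv (0.46 in WT Treg, 0.55 in Foxp3-KO and -0.44 in Nr4a-TKO) were each lost without any 1 of the WT Tconv, Nr4a-TKO or WT Treg arrays.

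Stat2, the transactivating subunit of ISGF3, had another order. It read 3.36 and 3.42 in WT Tconv, 3.65 and 3.41 in Nr4a-TKO, 3.99 and 3.88 in WT Treg, and 3.76 and 3.96 in Foxp3-KO. Nr4a-TKO overlapped WT Tconv, and Foxp3-KO overlapped WT Treg. Over WT Tconv, Stat2 rose by 0.54 ± 0.12 in WT Treg (adjusted p = 0.0198) and by 0.47 ± 0.12 in Foxp3-KO (adjusted p = 0.0404), and from WT Treg to Nr4a-TKO it fell by 0.40 ± 0.12 (adjusted p = 0.0464). Each of these was lost without 1 of 4 to 6 arrays, both WT Tconv arrays among them. Of the transcription group, 4 of 4 genes were called lower in Nr4a-TKO than in WT Treg (16.4% of all genes), and 3 of 4 with median scaling or the deposited table.

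The Ifit genes, whose products bind viral RNA and block its translation, were lowest in Nr4a-TKO in all 3 cases. Ifit1 was at 1.65 and 1.68 in WT Tconv, 2.11 and 1.95 in WT Treg, 0.57 and 0.62 in Nr4a-TKO, and 1.84 and 2.39 in Foxp3-KO. Ifit2 was at 0.48 and 0.62, 0.82 and 0.75, -0.29 and -0.34, and 0.87 and 1.08 in the same order. In both genes Nr4a-TKO was the lowest population without overlap and WT Tconv the next. Ifit3 was at 2.33 and 2.42 in WT Tconv, 3.03 and 2.76 in WT Treg, 1.72 and 1.62 in Nr4a-TKO, and 3.15 and 2.95 in Foxp3-KO. For Ifit3 WT Tconv was intermediate, and WT Treg and Foxp3-KO overlapped.

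Against Foxp3-KO, the 3 Ifit genes were 2.86-fold, 2.45-fold and 2.60-fold lower in Nr4a-TKO (log2 differences of -1.52 ± 0.18, -1.29 ± 0.10 and -1.38 ± 0.12, limma adjusted p = 0.00452, 0.00151 and 0.00217). Against WT Treg the differences of Ifit1, Ifit2 and Ifit3 were -1.43, -1.10 and -1.22, and against WT Tconv -1.07, -0.86 and -0.70, all called. Only the Ifit3 call against WT Tconv was lost on leaving out an array, WT Tconv replicate 2 (adjusted p = 0.0524). In the opposite direction, Ifit3 exceeded its WT Tconv level in WT Treg (0.52 ± 0.12) and in Foxp3-KO (0.67 ± 0.12), and Ifit2 in Foxp3-KO (0.43 ± 0.10), calls that were lost without either WT Tconv array among others. Ifit3 has a close copy, Ifit3b, and the probe sequence was not used here, so its signal may hold both.

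The products of the Oas genes make 2'-5' oligoadenylate, the activator of the antiviral RNase L, and these genes did not move together. Oas2 was high in WT Tconv only, at 5.43 and 5.39, against 2.96 and 3.09 in WT Treg, 2.56 and 2.72 in Nr4a-TKO, and 3.18 and 4.46 in Foxp3-KO. The Foxp3-KO replicates differed by 1.28 units, the widest gap within a pair among the members, and still lay below both WT Tconv arrays. Oas2 was 5.25-fold lower in WT Treg (-2.39 ± 0.39, adjusted p = 0.00871), 6.82-fold lower in Nr4a-TKO (-2.77 ± 0.39, adjusted p = 0.00402) and 3.01-fold lower in Foxp3-KO (-1.59 ± 0.39, adjusted p = 0.0382) than in WT Tconv. The Nr4a-TKO call held with any 1 array left out. The WT Treg call was lost without either WT Tconv array (adjusted p up to 0.0575), and the Foxp3-KO call without any 1 of 6 arrays, the Foxp3-KO pair being the exception.

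Oas3, the longest of the synthetases, followed a like order at smaller size. It read 0.85 and 0.87 in WT Tconv, -0.05 and 0.10 in WT Treg, -0.47 and -0.08 in Nr4a-TKO, and -0.04 and 0.65 in Foxp3-KO. WT Tconv was highest without overlap, and the other populations overlapped in part. The difference from WT Tconv was -0.83 ± 0.25 for WT Treg and -1.13 ± 0.25 for Nr4a-TKO (limma adjusted p = 0.0492 and 0.0152). Both were lost without either WT Tconv array.

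Oas1a, a synthetase with close paralogues such as Oas1g that its probe may also read, went the other way. It was at 3.61 and 3.57 in WT Tconv, 4.45 and 4.24 in WT Treg, 5.07 and 5.06 in Nr4a-TKO, and 4.60 and 4.41 in Foxp3-KO. Nr4a-TKO was highest and WT Tconv lowest without overlap, and WT Treg and Foxp3-KO overlapped. Oas1a was 2.79-fold higher in Nr4a-TKO than in WT Tconv (1.48 ± 0.10, adjusted p = 0.000672), and higher than in WT Treg by 0.72 ± 0.10 (adjusted p = 0.00643), calls that held without any 1 array. Its increase over Foxp3-KO (0.56 ± 0.10, adjusted p = 0.0141) was lost without either Nr4a-TKO array. So within 1 family Oas1a was highest, and Oas2 and Oas3 lowest, in Nr4a-TKO by group mean.

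The OAS-like genes Oasl1 and Oasl2 lack synthetase activity or have little of it, and Oasl1 is known to restrain translation of Irf7. Oasl2 was at 3.42 and 3.33 in WT Tconv, 2.77 and 2.63 in WT Treg, 1.24 and 1.04 in Nr4a-TKO, and 3.06 and 3.18 in Foxp3-KO. All 4 populations were separate, with Nr4a-TKO more than a unit below the next. Oasl2 in Nr4a-TKO was 4.72-fold below WT Tconv (-2.24 ± 0.11, adjusted p = 0.000225), 2.95-fold below WT Treg (-1.56 ± 0.11, adjusted p = 0.00082) and 3.96-fold below Foxp3-KO (-1.98 ± 0.11, adjusted p = 0.000679), and no omission of 1 array lost these calls. Oasl2 was also lower in WT Treg than in WT Tconv (-0.68 ± 0.11, adjusted p = 0.00746), a call lost without WT Tconv replicate 1 (adjusted p = 0.0594). Oasl1 read 3.54 and 3.53 in WT Tconv, 3.45 and 3.25 in WT Treg, 2.38 and 2.68 in Nr4a-TKO, and 3.84 and 4.35 in Foxp3-KO. Nr4a-TKO was lowest and Foxp3-KO highest without overlap. The Oasl1 difference between them was -1.57 ± 0.20 (adjusted p = 0.00508), which held without any 1 array, while the calls against WT Tconv (-1.01 ± 0.20) and WT Treg (-0.82 ± 0.20) were lost without either WT Tconv array or Nr4a-TKO replicate 1, among others.

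**Figure D3:**
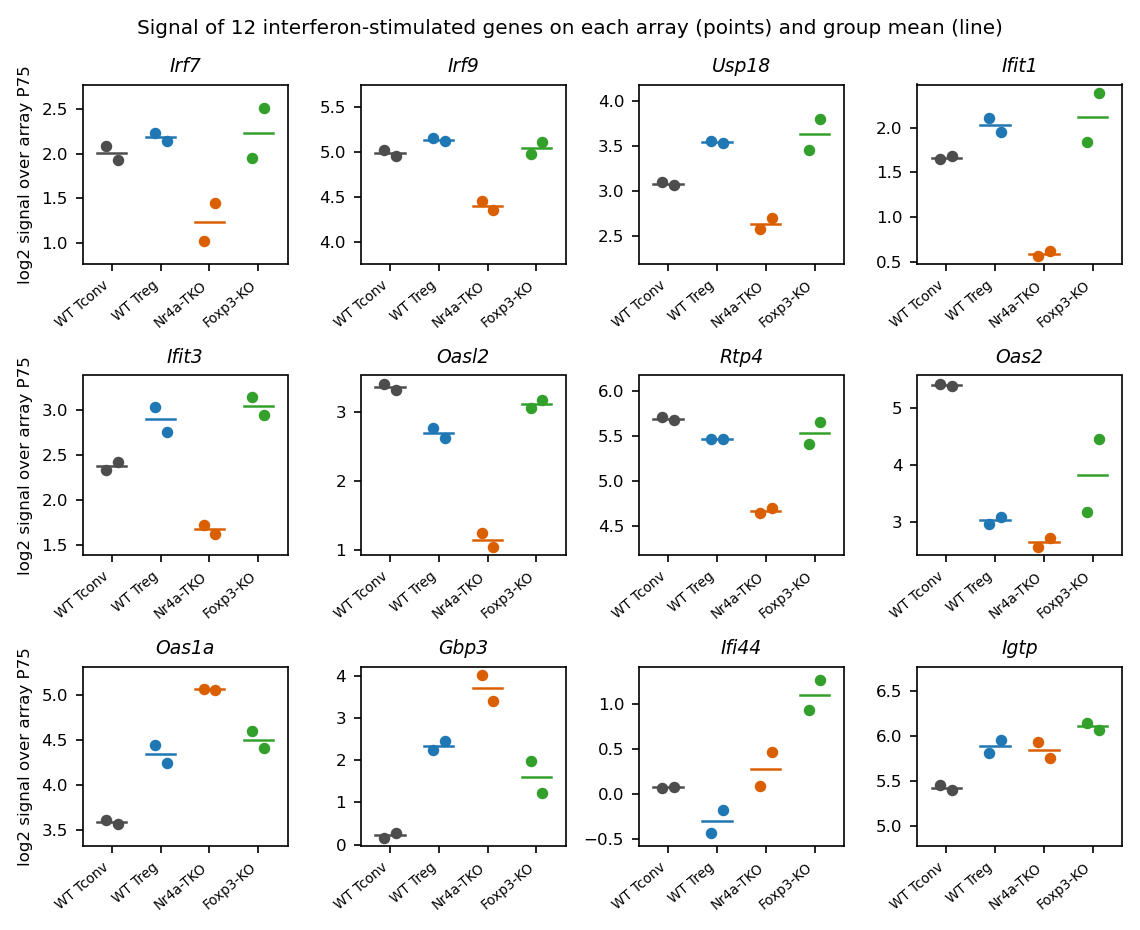
Log2 signal over the array's 75th percentile on each array (points) with group means (lines) for 12 interferon-stimulated genes, 2 arrays in each of 4 populations, with a separate y axis for each gene. Nr4a-TKO lies lowest for Irf7, Irf9, Usp18, Ifit1, Ifit3, Oasl2, Rtp4 and Oas2, and highest for Oas1a and Gbp3, and WT Tconv is highest for Oas2.

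Isg20, an exonuclease that degrades single-stranded RNA, was also highest in Nr4a-TKO. It read 4.59 and 4.60 in WT Tconv, 4.74 and 4.72 in WT Treg, 5.09 and 5.14 in Nr4a-TKO, and 4.69 and 4.76 in Foxp3-KO. The Nr4a-TKO arrays lay above the other 6, and WT Treg and Foxp3-KO overlapped. The differences were 0.53, 0.39 and 0.40 (± 0.07) from WT Tconv, WT Treg and Foxp3-KO, and the call against WT Treg was lost without either WT Treg array. The helicase-like regulator Dhx58 was lower in Nr4a-TKO than in WT Tconv (-0.55 ± 0.17, adjusted p = 0.039) and WT Treg (-0.74 ± 0.17, adjusted p = 0.0223), calls lost without 6 and 5 single arrays. Ifih1, the sensor MDA5, lay between 2.05 and 2.49 on all arrays and Eif2ak2, the kinase PKR that stops translation, between 1.17 and 1.41, with no call in any comparison by these probes. The dimmer probe of Ifih1 was lower in Nr4a-TKO than in Foxp3-KO (-0.72 ± 0.13, limma adjusted p = 0.0128). Of the 13 genes of RNA sensing and decay, 8 were called lower and 2 higher in Nr4a-TKO than in WT Tconv, 6 and 2 than in WT Treg, and 5 and 2 than in Foxp3-KO. Over all genes these shares were 27.6% and 21.1%, 16.4% and 18.5%, and 15.6% and 17.8%.

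Among the other antiviral effectors, Rtp4, an interferon-induced chaperone of receptor transport that also dampens interferon signalling, was lowest in Nr4a-TKO. It was at 5.71 and 5.68 in WT Tconv, 5.47 and 5.47 in WT Treg, 4.64 and 4.70 in Nr4a-TKO, and 5.41 and 5.66 in Foxp3-KO. Nr4a-TKO was lowest without overlap, by -1.03, -0.80 and -0.86 (± 0.10) from WT Tconv, WT Treg and Foxp3-KO, and all 3 calls held without any 1 array. Lgals3bp, a secreted glycoprotein that binds galectins, showed the reverse. It read 5.14 and 5.17 in WT Tconv, 4.83 and 4.73 in WT Treg, 5.43 and 5.50 in Nr4a-TKO, and 5.02 and 4.90 in Foxp3-KO. All 4 populations were separate and Nr4a-TKO was highest, by 0.69 ± 0.08 over WT Treg (adjusted p = 0.00352) and 0.51 ± 0.08 over Foxp3-KO (adjusted p = 0.00962), calls that held without any 1 array. Its differences between WT Tconv and WT Treg (-0.37) or Nr4a-TKO (0.31) were called and were lost without either WT Tconv array. By the dimmer probe of Lgals3bp, Nr4a-TKO minus WT Tconv was 0.13 ± 0.08 and was not called.

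Ifi44, a cytoplasmic protein induced by interferon, was the member that stood out in Foxp3-KO. It was at 0.07 and 0.08 in WT Tconv, -0.43 and -0.18 in WT Treg, 0.09 and 0.47 in Nr4a-TKO, and 0.94 and 1.27 in Foxp3-KO. Both Foxp3-KO arrays lay above the other 6. The difference was 1.41 ± 0.18 from WT Treg (2.66-fold, adjusted p = 0.0172), 1.03 ± 0.18 from WT Tconv (2.05-fold, adjusted p = 0.0158), and Nr4a-TKO minus Foxp3-KO was -0.82 ± 0.18 (adjusted p = 0.0213). Each of these calls was lost without either WT Tconv array (adjusted p up to 0.0962). Rsad2, the radical enzyme viperin, and Cmpk2, its neighbouring nucleotide kinase, were lower in Nr4a-TKO than in Foxp3-KO (-0.64 ± 0.15 and -0.65 ± 0.14) and were called in no other comparison. Samd9l, a translation inhibitor, was lower in Nr4a-TKO than in WT Treg (-0.58 ± 0.10) and Foxp3-KO (-0.40 ± 0.10). Against Foxp3-KO the dimmer probes of Cmpk2 (-0.54 ± 0.31) and Samd9l (-0.37 ± 0.13) were not called. Each of the calls of Rsad2, Cmpk2 and Samd9l was lost without at least 1 of several single arrays, Nr4a-TKO replicate 1 or 2 among them. Bst2, the tetherin that holds virions on the cell surface, lay between 4.35 and 4.74 with no call. Of the 8 genes of this role, 6 were called lower and 1 higher in Nr4a-TKO than in Foxp3-KO (15.6% and 17.8% of all genes), with Xaf1 among the 6 by its brighter probe, and 5 and 2 if Xaf1 is read by its dimmer probe.

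Xaf1, a pro-apoptotic antagonist of XIAP, had 2 probes that gave opposite readings. The brighter probe was at 3.74 and 3.75 in WT Tconv, 3.56 and 3.73 in WT Treg, 3.03 and 3.21 in Nr4a-TKO, and 3.75 and 3.92 in Foxp3-KO. By this probe Nr4a-TKO was lowest without overlap (-0.63, -0.53 and -0.72, each ± 0.11, from WT Tconv, WT Treg and Foxp3-KO), with the first call lost without WT Tconv replicate 1 and the second without Nr4a-TKO replicate 1 or WT Treg replicate 2. The dimmer probe was at -0.43 and -0.40 in WT Tconv, 4.27 and 2.85 in WT Treg, 2.98 and 3.72 in Nr4a-TKO, and -0.55 and -0.22 in Foxp3-KO. By it WT Treg and Nr4a-TKO were high and overlapped, and the other populations were low, with Nr4a-TKO 3.77 ± 0.49 above WT Tconv (adjusted p = 0.00315) and 3.73 ± 0.49 above Foxp3-KO (adjusted p = 0.0055). Between Nr4a-TKO and WT Treg it gave -0.21 ± 0.49, of the same sign as the brighter probe. The probe sequences were not used here, so which transcript or locus each probe reads was not tested, and no direction is given for Xaf1 as a gene. With probes averaged within a gene in place of the brightest, 10 members were called lower in Nr4a-TKO than in each other population, and Xaf1 was not among them.

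Zbp1, a sensor of Z-form nucleic acid that can trigger necroptosis, was called in no comparison by its brighter probe, at 3.15 and 3.20 in WT Tconv, 3.03 and 2.85 in WT Treg, 3.16 and 3.0 in Nr4a-TKO, and 3.39 and 3.03 in Foxp3-KO. All populations overlapped with at least 1 other. Its dimmer probe read 3.14 and 3.24, 3.19 and 3.15, 2.48 and 2.50, and 2.99 and 3.05 in the same order, with Nr4a-TKO lowest by -0.70, -0.68 and -0.53 (± 0.07, adjusted p = 0.0018, 0.00266 and 0.00631). Over the 12 members with 2 probes and the 6 comparisons, 72 pairs in all, the median gap between probes was 0.13. A gap of 1 unit or more occurred in 4 pairs, all of Xaf1, and opposite calls in 2 pairs, both of Xaf1.

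**Figure D4:**
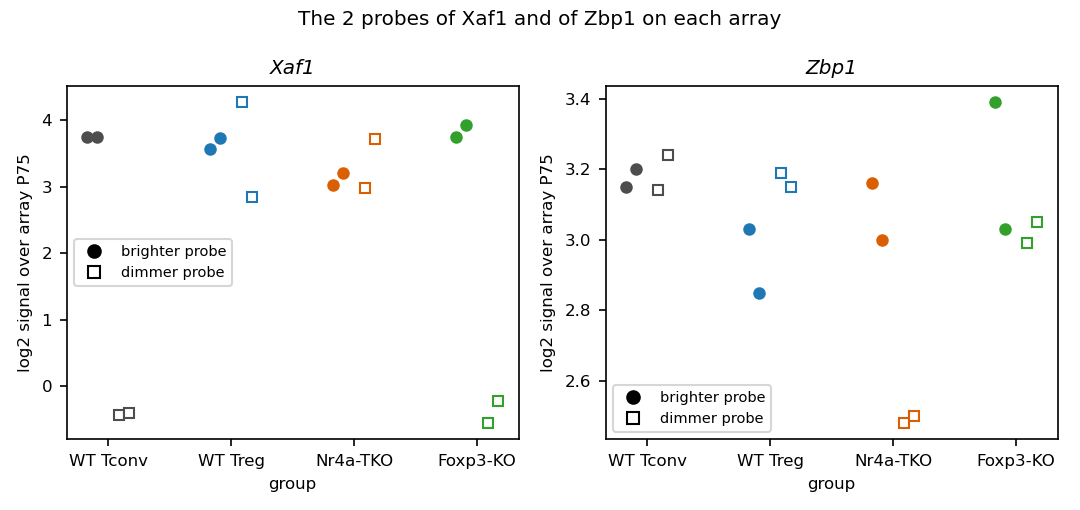
Log2 signal of the brighter (filled) and dimmer (open) probe of Xaf1 and of Zbp1 on each of the 8 arrays, by population, with a separate y axis for each gene. For Xaf1 the dimmer probe is near 0 in WT Tconv and Foxp3-KO and near the brighter probe in WT Treg and Nr4a-TKO, and for Zbp1 only the dimmer probe is lower in Nr4a-TKO.

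The ISG15, ubiquitin and ADP-ribose genes moved by less. Isg15, the ubiquitin-like protein that gives its name to the modification, was lower in Nr4a-TKO (4.88 and 5.02) than in WT Tconv (5.48 and 5.68) by 0.63 ± 0.15 (adjusted p = 0.0208), with the means of WT Treg and Foxp3-KO between them. The ADP-ribosyltransferase Parp9, which works with the ubiquitin ligase Dtx3l, fell by 0.29, 0.43 and 0.50 (± 0.09) in Nr4a-TKO from WT Tconv, WT Treg and Foxp3-KO. Dtx3l itself was called only against Foxp3-KO (-0.40 ± 0.10), and not by its dimmer probe (-0.11 ± 0.19). Trim21, an antibody receptor and ubiquitin ligase, was lower in Nr4a-TKO than in WT Tconv (-0.42 ± 0.09) and Foxp3-KO (-0.44 ± 0.09), and Ifi35, a leucine zipper protein, than in WT Tconv (-0.36 ± 0.09) and WT Treg (-0.38 ± 0.09). Trim30a, which has close paralogues, lay between 2.95 and 3.39 with no call.

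Parp14, a further ADP-ribosyltransferase, stood low in WT Tconv instead. It was at 4.22 and 4.21 in WT Tconv, 4.48 and 4.42 in Nr4a-TKO, 4.74 and 4.73 in WT Treg, and 4.53 and 4.87 in Foxp3-KO. WT Tconv was lowest without overlap, and WT Treg lay within the range of Foxp3-KO. Over WT Tconv, Parp14 rose by 0.52 ± 0.12 in WT Treg (adjusted p = 0.0225) and by 0.48 ± 0.12 in Foxp3-KO (adjusted p = 0.0367). Every call of this group was lost without at least 1 single array, with adjusted p up to 0.162. Of its 7 genes, 4 were called lower in Nr4a-TKO than in WT Tconv, 2 than in WT Treg and 3 than in Foxp3-KO, and 0 were called higher. Of all genes 27.6%, 16.4% and 15.6% were lower and 21.1%, 18.5% and 17.8% higher, and 7 genes are few for such shares. With median scaling the counts called lower were 4, 0 and 1, and with quantile normalization 3, 4 and 5.

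The last group holds guanylate-binding proteins and immunity-related GTPases, which attack the vacuoles of intracellular pathogens and respond strongly to type II interferon, and Tap1. In Foxp3-KO 6 of the 7 genes of this group were called higher than in WT Tconv and 0 lower (10.3% and 14.8% of all genes), with a median difference of 0.54 against -0.11 over all genes, and 4 with median scaling. Each of the 6 calls was lost without either WT Tconv array. In Nr4a-TKO 3 were higher than in WT Tconv and 0 lower (21.1% and 27.6% of all genes). Gbp3 was at 0.16 and 0.28 in WT Tconv, 2.23 and 2.45 in WT Treg, 4.02 and 3.40 in Nr4a-TKO, and 1.98 and 1.23 in Foxp3-KO. All 4 populations were separate, with Nr4a-TKO highest and WT Tconv lowest. Gbp3 was 11.2-fold higher in Nr4a-TKO than in WT Tconv (3.49 ± 0.31, adjusted p = 0.0011), 4.34-fold higher in WT Treg than in WT Tconv (2.12 ± 0.31, adjusted p = 0.00587) and 4.29-fold higher in Nr4a-TKO than in Foxp3-KO (2.10 ± 0.31, adjusted p = 0.00723), all held without any 1 array. Its increases in Nr4a-TKO over WT Treg (1.37 ± 0.31) and in Foxp3-KO over WT Tconv (1.39 ± 0.31) were lost without 5 single arrays each.

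Gbp2, a relative of Gbp3, was lowest in WT Treg. It read 3.47 and 3.56 in WT Tconv, 2.98 and 3.21 in WT Treg, 3.77 and 3.73 in Nr4a-TKO, and 3.92 and 3.85 in Foxp3-KO. All 4 populations were separate. The increase over WT Treg was 0.66 ± 0.10 in Nr4a-TKO (adjusted p = 0.00738), which held without any 1 array, and 0.79 ± 0.10 in Foxp3-KO (adjusted p = 0.0172), which was lost without either WT Tconv array (adjusted p up to 0.0594). Against WT Tconv, Gbp2 was lower in WT Treg (-0.42 ± 0.10) and higher in Foxp3-KO (0.37 ± 0.10), calls lost without either WT Tconv array among others. The Gbp genes are close paralogues, and a probe may read more than 1 of them.

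Igtp, a GTPase also called Irgm3, was at 5.45 and 5.40 in WT Tconv, 5.81 and 5.96 in WT Treg, 5.93 and 5.76 in Nr4a-TKO, and 6.15 and 6.07 in Foxp3-KO. WT Tconv was lowest and Foxp3-KO highest without overlap, and WT Treg and Nr4a-TKO overlapped. The difference from WT Tconv was 0.46, 0.42 and 0.68 (± 0.09) in WT Treg, Nr4a-TKO and Foxp3-KO. Iigp1, which coats the parasite vacuole, read 0.78 and 0.86 in WT Tconv, 1.04 and 1.15 in WT Treg, 1.59 and 1.36 in Nr4a-TKO, and 1.96 and 1.51 in Foxp3-KO. The precursors were above both wild-type populations and overlapped each other, and the increase over WT Tconv was 0.66 ± 0.17 in Nr4a-TKO and 0.91 ± 0.17 in Foxp3-KO. The calls of Igtp and Iigp1 were lost without either WT Tconv array. Ifi47 and Irgm1, further members of the GTPase family, exceeded WT Tconv in Foxp3-KO (0.36 ± 0.07 and 0.54 ± 0.07) and were lower in Nr4a-TKO than in Foxp3-KO (-0.52 ± 0.07 and -0.49 ± 0.07). Only the second pair of calls held without any 1 array. The dimmer probe of Irgm1 was also called for WT Treg minus WT Tconv (0.5 ± 0.1) and Nr4a-TKO minus WT Treg (-0.55 ± 0.1). For Iigp1 the dimmer probe rose over WT Tconv by 1.31 in Nr4a-TKO and 1.69 in Foxp3-KO (± 0.17). It was also called for WT Treg minus WT Tconv (0.83 ± 0.17) and Foxp3-KO minus WT Treg (0.86 ± 0.17). Tap1, a chain of the peptide transporter of antigen presentation, fell by 0.48 ± 0.12 from WT Treg to Nr4a-TKO (adjusted p = 0.0303), a call lost without 6 single arrays.

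Set side by side over the 4 populations, 26 of the 39 genes had their lowest group mean in Nr4a-TKO and 0 in Foxp3-KO, while 22 had their highest in Foxp3-KO. These counts of group means were not set against all tested genes, so they are not read as a trait of the members. The Foxp3-KO part leans on 1 array. Without Foxp3-KO replicate 2, the members' median of Foxp3-KO minus WT Treg fell from 0.15 to 0.01 (-0.02 over all genes). Nr4a-TKO was called lower than each of the other 3 populations for 11 genes (28.2%), against 7.96% of all tested genes. These were Irf7, Irf9, Usp18, Ifit1, Ifit2, Ifit3, Oasl1, Oasl2, Xaf1 by its brighter probe, Rtp4 and Parp9. It was called higher than each for 4 genes (10.3%), Isg20, Oas1a, Lgals3bp by its brighter probe and Gbp3, against 8.16% of all genes. Both Nr4a-TKO arrays lay below the other 6 for 21 members and above them for 4, against 22% and 19.2% of all genes. By the brightest probe no comparison was called in 5 members (12.8%, against 30.6% of all genes), namely Ifih1, Zbp1, Eif2ak2, Bst2 and Trim30a, although the dimmer probes of Zbp1 and Ifih1 were called in 3 comparisons and 1. The count of 11 was smaller without any 1 of the WT Tconv, Nr4a-TKO or WT Treg arrays, and the share over all genes was then smaller too. Without Foxp3-KO replicate 1 both were larger. Irf9, Ifit1, Ifit2, Oasl2 and Rtp4 were in the set under all 8 omissions. Fitted on only the 2 groups compared, the set held 3 genes, Ifit2, Ifit3 and Oasl2.

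**Figure D5:**
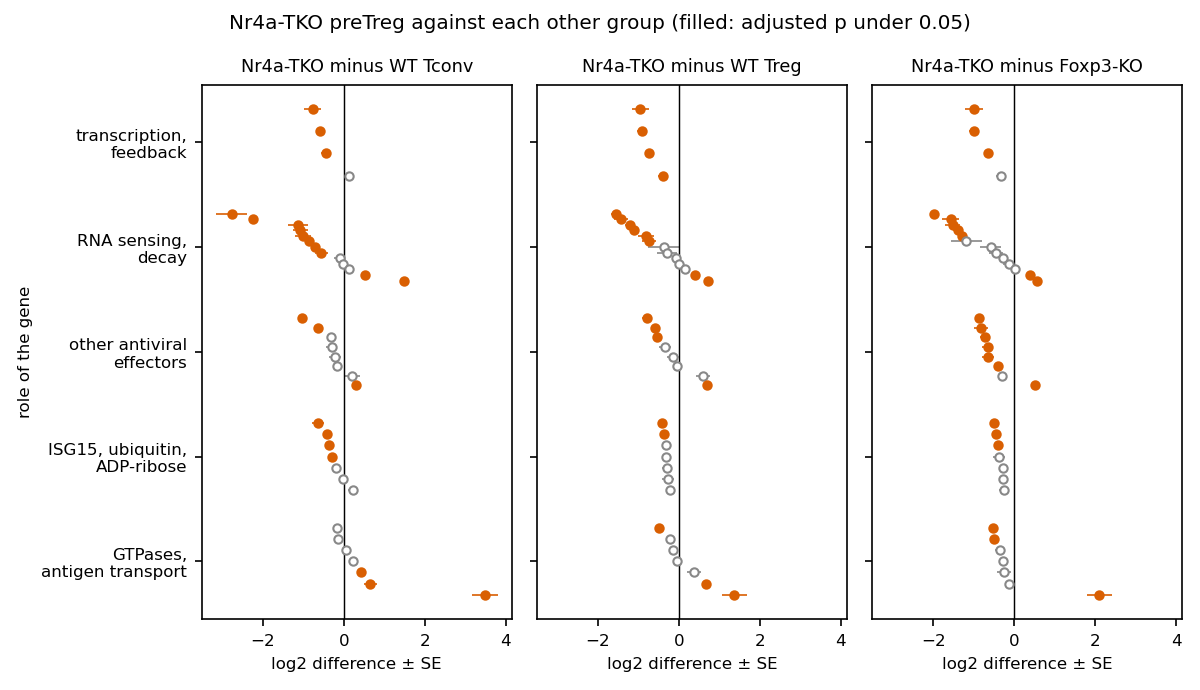
Log2 difference ± SE of each of the 39 genes between Nr4a-TKO and WT Tconv, WT Treg and Foxp3-KO (panels), by role and ordered by size within a role, with filled points for an adjusted p under 0.05. Most filled points lie left of 0 in each panel, and the rightmost point of the GTPase group in each panel is Gbp3.

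The ISRE core was present in genes of both directions. Of the 8 genes with a matched promoter that were lowest in Nr4a-TKO, 2 held the core (Ifit1 and Ifit3), and of the 4 that were highest there, 2 held it (Oas1a and Gbp3). By role it was found in 4 of 6 GTPase and antigen transport genes, 6 of 10 RNA genes, 3 of 5 ISG15 and ADP-ribose genes, 2 of 7 other effectors and 1 of 3 transcription genes. These counts are too small to compare.

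Of the genes that carry the interferon signal, the receptor chain Ifnar1 was lowest in Nr4a-TKO and its partner Ifnar2 was lowest in WT Tconv. Ifnar1 was at 3.58 and 3.43 in WT Tconv, 3.75 and 3.59 in WT Treg, 2.33 and 2.32 in Nr4a-TKO, and 3.53 and 3.47 in Foxp3-KO. Nr4a-TKO lay more than 1 unit below the other 6 arrays, among which WT Tconv and Foxp3-KO overlapped, and the differences were -1.18, -1.34 and -1.17 (± 0.09, adjusted p = 0.000852, 0.000853 and 0.00163), which held without any 1 array. Ifnar2 read 2.10 and 2.02 in WT Tconv, 2.81 and 2.86 in WT Treg, 2.60 and 2.53 in Nr4a-TKO, and 2.74 and 2.53 in Foxp3-KO. WT Tconv was below the rest, and Nr4a-TKO lay below WT Treg without a call (-0.27 ± 0.09, adjusted p = 0.0714). The distance from WT Tconv was 0.78 ± 0.09 for WT Treg, 0.50 ± 0.09 for Nr4a-TKO and 0.58 ± 0.09 for Foxp3-KO, and only the first of these held without any 1 array. Of the type II chains, Ifngr2 was lower in Nr4a-TKO than in WT Tconv, WT Treg and Foxp3-KO (-1.61, -1.10 and -1.34, ± 0.22), and Ifngr1 was higher in Nr4a-TKO than in WT Tconv (1.48 ± 0.23) and Foxp3-KO (1.34 ± 0.23). The calls of both against WT Tconv held, those against Foxp3-KO were lost without Nr4a-TKO replicate 1, and that of Ifngr2 against WT Treg without Nr4a-TKO replicate 1 or either WT Treg array. The kinase Jak1 was lower in Nr4a-TKO than in all 3 (-0.40, -0.40 and -0.33, ± 0.08) and Jak2 higher than in WT Tconv (0.88 ± 0.09) and WT Treg (0.31 ± 0.09). Only the Jak2 call against WT Tconv held without any 1 array, and all 3 Jak1 calls were lost without Nr4a-TKO replicate 1, among others.

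Of the 10 genes listed for receptors and JAK-STAT signalling, 3 were called lower and 5 higher in Nr4a-TKO than in WT Tconv, 4 and 1 than in WT Treg, and 4 and 1 than in Foxp3-KO. Of all genes 27.6%, 16.4% and 15.6% were lower and 21.1%, 18.5% and 17.8% higher in these comparisons, so the 3 of 10 against WT Tconv is near the share over all genes. Irf1, an activator induced mainly by type II interferon, was called only between Nr4a-TKO and Foxp3-KO (-0.40 ± 0.11, adjusted p = 0.038). Socs1, which inhibits the Jak kinases, was higher in Nr4a-TKO than in Foxp3-KO (0.58 ± 0.11, adjusted p = 0.0145), a call lost without either Nr4a-TKO array, and the Irf1 call was lost without any 1 of the 8 arrays. The related brake Socs3 was higher in Nr4a-TKO than in WT Tconv, WT Treg and Foxp3-KO by 2.66, 1.60 and 2.86 (± 0.29). Of the 8 brakes, 3, 3 and 4 were called higher and 2, 1 and 1 lower in Nr4a-TKO in that order (21.1%, 18.5% and 17.8% of all genes higher, and 27.6%, 16.4% and 15.6% lower). The Socs3 call against WT Treg was lost without Nr4a-TKO replicate 1 or either WT Treg array.

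Of the 8 further interferon regulatory factors, 4, 4 and 5 were called higher and 0, 2 and 0 lower than WT Tconv in WT Treg, Nr4a-TKO and Foxp3-KO, where 13.8%, 21.1% and 10.3% of all genes were higher and 20.9%, 27.6% and 14.8% lower. Irf8, a factor of the Irf family that is abundant in myeloid cells, was higher by 1.74, 2.33 and 2.42 (± 0.23) in that order, with all 3 calls held without any 1 array. Among 12 sensors and adaptors, Ddx58, the RNA sensor RIG-I, was lower in Nr4a-TKO than in WT Tconv, WT Treg and Foxp3-KO (-0.94, -0.70 and -0.78, ± 0.10), and so was the RNA receptor Tlr7 (-0.69, -1.53 and -1.39, ± 0.14), while the adaptor Myd88 was higher (0.31, 0.47 and 0.59, ± 0.07). In that list 4, 4 and 6 genes were called higher (21.1%, 18.5% and 17.8% of all genes) and 3, 3 and 3 lower (27.6%, 16.4% and 15.6%). The Tlr7 and Myd88 calls against WT Tconv were lost without either WT Tconv array or Nr4a-TKO replicate 1.

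Of 19 interferon genes listed, 15 had a probe and 9 were bright enough to test. Ifna1 and Ifnab, close copies within the type I cluster that a probe may not separate, were lower in Nr4a-TKO than in WT Tconv (-0.86 ± 0.22 and -1.04 ± 0.29), both at more than 2 units under the array's 75th percentile, calls that were lost without any 1 of the WT Tconv or Nr4a-TKO arrays. Ifng, which encodes type II interferon, was at -1.31 and -1.41 in WT Tconv, -1.01 and -1.02 in WT Treg, 2.74 and 2.62 in Nr4a-TKO, and 2.61 and -2.21 in Foxp3-KO. The Foxp3-KO replicates lay far apart, 1 near Nr4a-TKO and 1 below all other arrays. The difference between Nr4a-TKO and WT Tconv, 4.04 ± 1.44, did not pass the limma test (adjusted p = 0.0641). Its standard error is shared by the 4 groups and so holds the spread of the Foxp3-KO pair. The replicate SD was 3.41 in Foxp3-KO, 0.08 in Nr4a-TKO and 0.07 in WT Tconv.

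A wider list of 67 interferon-stimulated genes outside the 40, of which 58 were tested, moved in both directions. Nr4a-TKO was called lower than each other population for 10 of them (17.2%, against 7.96% of all genes) and higher for 8 (13.8%, against 8.16%). Against Foxp3-KO 15 were lower in Nr4a-TKO and 12 higher (15.6% and 17.8% of all genes), against WT Treg 19 and 10 (16.4% and 18.5%), and against WT Tconv 14 and 24 (27.6% and 21.1%). In WT Treg 24 were higher than in WT Tconv and 0 lower (13.8% and 20.9% of all genes), and in Foxp3-KO 22 and 1 (10.3% and 14.8%). The decreases in Nr4a-TKO included Ifi208, a DNA-binding protein of the PYHIN family, which was at 5.78 and 5.67 in WT Tconv, 5.81 and 5.88 in WT Treg, 3.52 and 3.30 in Nr4a-TKO, and 6.16 and 6.46 in Foxp3-KO. Nr4a-TKO lay more than 2 units below the other arrays (-2.32, -2.44 and -2.90, ± 0.13), and these calls held without any 1 array. Gbp5, which promotes inflammasome assembly, was higher than in WT Tconv by 2.0, 2.25 and 1.84 (± 0.18) in WT Treg, Nr4a-TKO and Foxp3-KO, and Tdrd7, an antiviral protein with Tudor domains, by 1.21, 1.35 and 1.26 (± 0.07), all held without any 1 array.

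Markers of other cells moved with the populations. The summed linear signal of 12 myeloid and dendritic cell markers, with the array's 75th percentile set to 1, was 51.4 to 54.0 in WT Tconv, 77.9 to 158 in WT Treg, 281 to 409 in Nr4a-TKO and 192 to 293 in Foxp3-KO. That of 8 B cell markers was 1.97 to 2.05, 3.83 to 5.30, 15.3 to 59.8 and 4.58 to 18.5, and that of 8 innate-like T and NK cell markers 23.6 to 23.9, 11.7 to 12.7, 69.5 to 75.1 and 10.1 to 49.9. In Nr4a-TKO all 12 myeloid and all 8 B cell markers were above background, and of the innate-like markers only Klrk1 was not. Those not above background in WT Tconv included Cd79a, Ms4a1, Pax5, Fcgr3 and Ncr1. The 8 CD4 T cell markers were above background in every population, and so were the 8 regulatory T cell markers, with sums of 49.6 to 51.7 in WT Tconv, 513 to 528 in WT Treg, 329 to 414 in Nr4a-TKO and 227 to 260 in Foxp3-KO. The 8 plasmacytoid dendritic cell markers, Bst2 among them, summed to 410 to 430 in WT Tconv, 339 to 363 in WT Treg, 316 to 319 in Nr4a-TKO and 349 to 351 in Foxp3-KO, a sum carried mostly by Siglech (8.18 to 8.45 on the log2 scale on all arrays) and, in WT Tconv, by Ccr9, which is also in the list of immature thymocytes. Gene by gene the order was another: 4 of the 8 were called higher and 0 lower in Foxp3-KO than in WT Tconv (10.3% and 14.8% of all genes), with a median of 0.97. Against WT Treg, 4 were called higher in Foxp3-KO and 0 lower (3.33% and 3.12% of all genes), with a median of 1.32. Tcf4, Pld4, Cox6a2 and Klk1 had their highest group mean in Foxp3-KO, and Runx2 was not above background there. The 8 granulocyte, 7 measured red cell and 8 thymic stroma markers summed to at most 3.56, 0.834 and 1.92. The part of these cells in the results was not tested, and in bulk samples fewer cells of a type and less RNA per cell cannot be told apart.

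Maturation genes moved too, in ways that differ between populations. Of 10 genes of immature single-positive thymocytes, 7 were called lower in Nr4a-TKO than in Foxp3-KO and 1 higher, and 3 were higher and 0 lower in Foxp3-KO than in WT Treg. Of 10 genes of mature cells, 5 were called lower in Nr4a-TKO than in Foxp3-KO and 2 higher, and 5 were lower and 0 higher in Foxp3-KO than in WT Treg. Of all genes 15.6% were lower and 17.8% higher in Nr4a-TKO than in Foxp3-KO, and 3.12% and 3.33% in Foxp3-KO than in WT Treg. In WT Treg against WT Tconv, 7 immature genes were lower and 0 higher, and 1 mature gene lower and 6 higher (20.9% and 13.8% of all genes). In Nr4a-TKO the counts were 5 and 0, and 5 and 4, against WT Tconv (27.6% and 21.1%). Against WT Treg they were 2 and 2, and 5 and 1 (16.4% and 18.5%). The mature-cell receptor S1pr1, which guides exit from the thymus, fell by 1.74 ± 0.06 from Foxp3-KO to Nr4a-TKO (adjusted p = 0.00024), and the recombinase gene Rag1, an early gene, fell by 3.26 ± 0.87 (adjusted p = 0.0379). The part of maturation stage in the differences of the interferon-stimulated genes was not tested.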

How the data were processed

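RNA from 8 samples (4 groups, 2 biological replicates each) was labelled with Cy3 and hybridised to 1-colour Agilent arrays, per the labels' protocols. The deposited scanner files hold the processed intensity of each spot, background-subtracted by Agilent Feature Extraction 10.7.1.1, with no normalization between arrays, per the file headers. The authors' deposited matrix holds the same intensity on a linear scale, not centred, with the 75th percentile of each array near 1, and was used as an alternative. Other deposited columns are flags of 0 or 1 for signal above background, saturation and outliers, per the file headers.

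Control and outlier-flagged spots were left out (81 to 164 flagged of 62976 spots, 0 saturated). Log2 intensity minus the array's 75th percentile was averaged over spots of a probe. Of 55681 probes, 28026 were given a symbol through their RefSeq accession and 27655 were not named, leaving 21154 genes, each read by its brightest probe. Genes well above background on both arrays of at least 1 group (13498) were tested with limma 3.58.1 in R 4.3.3, with 4 residual degrees of freedom and Benjamini-Hochberg adjustment within each comparison. The fitting script was tested on simulated data. The members, lists and roles were chosen with earlier results of these data known. Genes given in full were, in each comparison, up to 6 called increases and up to 6 called decreases with separated replicates, together with Irf7, Irf9, Stat2, Usp18 and genes whose probes disagree. Of each pathway list up to 4 genes with the smallest adjusted p could be named, and Ifnar1, Ifnar2, Irf1 and Socs1 always. Some results that the rule would name are not reported here. Nr4a1, Nr4a2, Nr4a3, Foxp3, Ifng, S1pr1 and Rag1 were added after values were seen. Alternatives were another background correction, scalings, filters, the mean of probes, an intensity trend, fits on 2 groups, a replicate block and leaving out each array.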

Additional observations from a re-analysis of the deposited data

How the results depend on the processing

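Leaving out 1 array leaves 3 residual degrees of freedom, and the members called then ranged from 2 to 14 for WT Treg against WT Tconv, 10 to 25 for Nr4a-TKO against WT Tconv, 0 to 15 for Foxp3-KO against WT Tconv, 10 to 28 for Nr4a-TKO against WT Treg, 0 to 5 for Foxp3-KO against WT Treg and 14 to 31 for Nr4a-TKO against Foxp3-KO. The median member differences ranged, in the same order, from 0.10 to 0.15, -0.26 to -0.18, 0.13 to 0.33, -0.32 to -0.28, 0.01 to 0.24 and -0.53 to -0.31. The members called lower in Nr4a-TKO than in each other group ranged from 6 to 16, a count whose alternatives were chosen after seeing the data. Of 95 member calls, 35 held under all 8 omissions.

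For Foxp3-KO against WT Tconv the calls were 9 with median scaling, 6 with no filter on dim probes and 3 with only the 2 groups fitted, and the median was 0.32 with quantile normalization and 0.07 with median scaling. For Foxp3-KO against WT Treg they were 4 with normexp, 7 with an intensity trend and 0 with only the 2 groups, and for Nr4a-TKO against Foxp3-KO 3 with only the 2 groups. With only the 2 groups, 3 members were called lower in Nr4a-TKO than in each other group. With only the 2 groups, the calls were 14 for WT Treg against WT Tconv, 23 for Nr4a-TKO against WT Tconv and 20 for Nr4a-TKO against WT Treg. Fitting only 2 groups leaves fewer samples in every comparison, also where the calls did not fall, and the cause of the shifts was not tested. With median scaling the median for WT Treg against WT Tconv reversed to -0.02.

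With probes averaged within a gene, Xaf1 reversed to 1.94 (WT Treg minus WT Tconv), 1.57 (Nr4a-TKO minus WT Tconv), -1.87 (Foxp3-KO minus WT Treg) and 1.51 (Nr4a-TKO minus Foxp3-KO), where its probes disagree. Cgas became -0.09 (Nr4a-TKO minus Foxp3-KO) and Ptpn1 -0.11 (Nr4a-TKO minus WT Treg). Same-numbered deviations correlated at -0.0285 to -0.0105 between WT Tconv and the other groups, and at 0.148 to 0.259 among those groups. Whether the numbers pair the samples is therefore not settled. The replicate block gave 12, 22, 11, 21, 2 and 22 members called in the order above, and 10 lowest in Nr4a-TKO. The slide as a block was not run, since all arrays lie on 1 slide. The deposited table left the count of 11 at 11. The lowest log2 signal well above background was -5.43 to -3.90 on an array, and all 39 members lay above it.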

Other observations

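Some interferon-inducible genes outside the 40 were higher in Nr4a-TKO than in each other population, and were picked after their values were seen. Cxcl10, a chemokine that draws activated T cells, was at -2.24 and -2.74 in WT Tconv, 0.71 and 0.80 in WT Treg, 3.43 and 3.20 in Nr4a-TKO, and 2.20 and 0.47 in Foxp3-KO. The populations did not overlap except WT Treg and Foxp3-KO, and Cxcl10 was higher in Nr4a-TKO than in WT Tconv, WT Treg and Foxp3-KO by 5.80, 2.56 and 1.98 (± 0.55, limma adjusted p = 0.00131, 0.0197 and 0.0419). Ifitm3, which blocks virus entry at membranes, was at -1.54 and -1.42, -0.26 and -0.48, 2.07 and 1.88, and 0.64 and -0.34 in the same order. Nr4a-TKO was highest without overlap, by 3.46, 2.34 and 1.83 (± 0.31). Ly6a, the surface protein Sca-1, was at 3.73 and 3.88, 3.28 and 3.54, 6.90 and 7.01, and 4.54 and 3.0. It was higher in Nr4a-TKO by 3.15, 3.54 and 3.18 (± 0.47), and the Foxp3-KO replicates differed by more than 1 unit. The checkpoint ligand Cd274 rose by 1.24, 0.74 and 0.69 (± 0.11). On the Foxp3-KO arrays Ifng, Cxcl10, Ifitm3 and Ly6a were all higher in replicate 1, while Irf7, Ifit1, Oas2 and Oasl1 were all higher in replicate 2. Both sets were picked, and relatives of the second went the other way. Ifit3 was at 3.15 and 2.95 and Oas1a at 4.60 and 4.41 in Foxp3-KO replicates 1 and 2. The replicate order was not counted over the members or over all genes. The genes outside the 40 named here were not followed through the omission of single arrays. The part of other cell types in these levels was not tested.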
